A study of Homo sapiens with 12 samples.

Results

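In JEKO-1 cells, a human mantle cell lymphoma line, 10 genes best known from nerve cells, growth factor signalling or metabolism were followed through exposure to KPT-330. The 10 genes are NGFR, MDK, SLIT2, SLITRK6, BEX2, LIX1, CAPN5, GOLGA7B, MTSS1L and SLC2A4RG, out of 64253 genes in the table. They had been picked by name because their counts changed strongly under KPT-330 or under both drugs. Their differences between KPT-330 and DMSO, and between the combination and DMSO or CS, are therefore a description and carry no test. The cells received DMSO as the control, choline salicylate (CS), KPT-330, or KPT-330 together with CS, each for 48 h and each with 3 RNA-seq libraries, 12 in all. KPT-330 (selinexor) blocks XPO1, also called CRM1, the nuclear export receptor, and CS is a salicylate. The labels give ranges of concentrations for the study but not the concentration used for these libraries. The sources do not state that replicate libraries were grown as separate cultures, and the spread that p-values rest on may therefore be technical. Levels are given as CPM, the reads of a gene relative to the total of its library, scaled between libraries by TMM. In DMSO, 8 of the 10 genes averaged under 1 CPM. The other 2 did not meet the description near-silent as closely: MTSS1L averaged 1.75 CPM, and SLIT2 averaged 7.48 CPM, which placed it at percentile 50.2 of the 19460 genes tested.

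Several of these genes encode parts of cell-to-cell signalling. NGFR is the p75 neurotrophin receptor, which binds neurotrophins and works with co-receptors such as sortilin. MDK is midkine, a secreted heparin-binding growth factor of embryonic tissue that is also made by many tumours, and SLIT2 is a secreted guidance cue read by ROBO receptors. SLITRK6 is a transmembrane protein of synapses and sensory neurons. BEX2 is a small adaptor protein of the BEX and TCEAL family, and LIX1 was first described in limb development. CAPN5 is a calcium-dependent protease of the calpain family, GOLGA7B is an accessory protein of the palmitoyltransferase ZDHHC5, MTSS1L is a membrane-curving protein of the I-BAR type, and SLC2A4RG is a DNA-binding regulator of the gene for the glucose transporter GLUT4.

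Total counts ran from 35325563 to 59490178 per library, and all 10 genes passed the filter on low counts. XPO1 was present in every library, at 750 to 923 CPM in DMSO, 842 to 943 in CS, 1551 to 1619 in KPT-330 and 1471 to 1624 in the combination. B cell markers were present as the line's label requires: 12 of 12 were tested, their summed level was 2320 to 2650 CPM in DMSO and 3220 to 3270 CPM in KPT-330, and 6 were called higher under KPT-330 and 0 lower, where 24.7% of all tested genes were called higher and 23.8% lower. Without DMSO replicate 1 the 6 became 10. Libraries differed in how counts followed the GC content of transcripts. The slope of log2 CPM per 10 GC points was between -1.03 and -0.63 in DMSO and between -0.95 and -0.66 in CS. It was between -0.52 and -0.49 in KPT-330 and between -0.87 and -0.59 in the combination. KPT-330 thus overlapped no other group, the combination included. Of the 10 genes, 8 had a transcript GC content above the median of tested genes (47.7%). The part of this shift in the results was not tested directly, but a fit corrected for GC content is given beside the values it moves most.

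Promoter sequences were matched for 6 of the 10 genes in a RefSeq table for GRCh38.p14, and NGFR, MDK, LIX1 and CAPN5 had no entry. MTSS1L was matched under its current symbol, MTSS2. For each gene the 250 bases before the RefSeq start were read. That start lay 1355 bases before the deposited gene for SLIT2 and 396 before it for GOLGA7B. Those windows are therefore not directly next to the gene as counted. For the others it lay at most 85 bases from the deposited start. Among 35116 such windows the median GC content was 58% with 11 CpG sites. The 5 windows shown next span the range found, from SLITRK6, poor in GC, to SLC2A4RG, almost made of GC. They are given 5′ to 3′ on the strand of the gene and leave out bases inside the deposited gene span. Capitals mark the GC box, GGGCGG or its reverse complement CCGCCC, and the E box, CACGTG.
SLITRK6, chr13:85799489-85799669, minus strand: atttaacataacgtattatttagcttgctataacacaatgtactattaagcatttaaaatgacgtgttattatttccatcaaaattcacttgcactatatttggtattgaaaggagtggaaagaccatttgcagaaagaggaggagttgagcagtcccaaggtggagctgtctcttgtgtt
BEX2, chrX:103311047-103311240, minus strand: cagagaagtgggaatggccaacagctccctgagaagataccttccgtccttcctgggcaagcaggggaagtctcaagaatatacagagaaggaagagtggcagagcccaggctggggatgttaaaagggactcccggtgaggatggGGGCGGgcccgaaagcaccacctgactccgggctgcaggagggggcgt
SLIT2, chr4:20251655-20251904, plus strand: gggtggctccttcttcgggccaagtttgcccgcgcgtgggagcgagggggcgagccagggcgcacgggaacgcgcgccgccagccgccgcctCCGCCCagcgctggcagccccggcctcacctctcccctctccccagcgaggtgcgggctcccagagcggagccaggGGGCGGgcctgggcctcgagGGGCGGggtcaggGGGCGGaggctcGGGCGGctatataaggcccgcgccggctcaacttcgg
MTSS1L, chr16:70686067-70686303, minus strand: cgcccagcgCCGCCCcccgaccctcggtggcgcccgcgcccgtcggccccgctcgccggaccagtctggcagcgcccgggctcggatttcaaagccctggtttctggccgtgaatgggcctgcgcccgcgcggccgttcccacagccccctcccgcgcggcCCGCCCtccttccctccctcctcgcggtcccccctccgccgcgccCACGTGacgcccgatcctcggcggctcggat
SLC2A4RG, chr20:63739526-63739775, plus strand: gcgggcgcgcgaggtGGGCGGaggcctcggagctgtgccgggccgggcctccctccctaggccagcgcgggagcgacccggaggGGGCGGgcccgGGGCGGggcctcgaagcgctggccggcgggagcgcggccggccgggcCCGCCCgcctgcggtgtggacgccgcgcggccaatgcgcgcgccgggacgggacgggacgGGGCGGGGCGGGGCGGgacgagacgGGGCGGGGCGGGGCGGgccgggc

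The full window of SLITRK6 was 37.6% GC with 3 CpG sites, whereas BEX2 had 61.2% and 11, SLIT2 77.2% and 30, GOLGA7B 71.2% and 19, MTSS1L 78.4% and 40, and SLC2A4RG 86.8% and 46. GC content was above the median of all windows in 5 of the 6. A GC box, searched on both strands with overlapping matches counted, occurred in 5 of the 6 windows and in 42.6% of all windows, with 10 matches in SLC2A4RG and 5 in SLIT2. An E box occurred in 2 of the 6, BEX2 and MTSS1L, and in 6.34% of all windows. In MTSS1L it lay at positions -44 to -39 from the start, and in BEX2 at -19 to -14, a stretch not printed because the deposited gene span covers it. Other motifs, searched on both strands, had 0 matches in the 6 windows: the cyclic AMP element TGACGTCA (1.65% of all windows), the FOXO site GTAAACA (2.98%) and the left part of the REST element TTCAGCACC (0.288%). Longer patterns for an NF-kB site and the right part of the REST element also had 0 matches, and occurred in 0.179% and 0.199% of all windows. A match or its absence describes letters in these windows and says nothing of binding.

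NGFR, the neurotrophin receptor (chr17:49495293-49515017, hg38), had the lowest level of the 10 genes in DMSO and passed 10 CPM with KPT-330. Its 3 libraries held 0.0616, 0 and 0.0970 CPM in DMSO, 0.0230, 0.0827 and 0.206 in CS, 10.1, 11.05 and 11.2 in KPT-330, and 30.3, 26.1 and 21.0 in the combination. All 6 libraries with KPT-330 lay above all 6 without it, and the 3 combination libraries lay above the 3 with KPT-330 alone. The log2 fold change over DMSO was 7.59 ± 0.39 (SE) in KPT-330 and 8.85 ± 0.38 in the combination, values that rest on a handful of control reads. Without DMSO replicate 3 they were 8.24 and 9.51, and with the GC correction the KPT-330 value was 6.99.

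MDK, the growth factor midkine (chr11:46380756-46383837), was also close to 0 in DMSO and was highest under KPT-330 alone. Its libraries held 0.226, 0.0734 and 0.0970 CPM in DMSO, 0.368, 0.331 and 0.550 in CS, 17.0, 18.2 and 19.0 in KPT-330, and 10.1, 7.65 and 6.01 in the combination. No 2 groups overlapped. Over DMSO the log2 fold change was 7.02 ± 0.30 in KPT-330 and 5.83 ± 0.30 in the combination, and without DMSO replicate 1 these were 7.68 and 6.49.

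SLIT2, the ROBO ligand (chr4:20253260-20620561), was the member with an appreciable level in the control. Its libraries held 7.21, 7.66 and 7.59 CPM in DMSO, 4.56, 5.62 and 4.12 in CS, 17.5, 16.8 and 16.8 in KPT-330, and 2.90, 3.92 and 3.37 in the combination. The 4 groups did not overlap, and the combination was the lowest and KPT-330 alone the highest. Its log2 fold change over DMSO was 1.19 ± 0.12 in KPT-330 and -1.14 ± 0.13 in the combination, so SLIT2 was the 1 gene of the 10 with its combination libraries below all DMSO libraries, as 25.9% of tested genes had.

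SLITRK6, the synaptic membrane protein (chr13:85792790-85799488), was also high in KPT-330 alone. Its libraries held 0.739, 0.660 and 0.922 CPM in DMSO, 1.22, 1.18 and 0.996 in CS, 8.55, 7.43 and 7.47 in KPT-330, and 1.33, 1.65 and 1.87 in the combination. The combination lay just above CS, with no overlap, and far below KPT-330. The log2 fold change over DMSO was 3.33 ± 0.17 in KPT-330 and 1.07 ± 0.18 in the combination.

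LIX1 (chr5:97091867-97142872) had the same ordering from a lower start. Its libraries held 0.0411, 0.196 and 0.0970 CPM in DMSO, 0.138, 0.0620 and 0.189 in CS, 8.22, 8.26 and 8.29 in KPT-330, and 1.81, 1.71 and 1.57 in the combination. DMSO and CS overlapped, whereas KPT-330 and the combination stood apart from them and from each other. Over DMSO the log2 fold change was 6.23 ± 0.28 in KPT-330 and 3.95 ± 0.32 in the combination, and without DMSO replicate 2 these were 6.89 and 4.61. LIX1 overlaps a long noncoding gene on the opposite strand, CTD-2215E18.1. Without strand information, reads in bases that both genes share cannot be assigned to either of them by strand. CTD-2215E18.1 averaged 0.63 CPM in DMSO, 0.887 in KPT-330 and 0.557 in the combination.

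BEX2 (chrX:103309346-103311046) followed the opposite order between KPT-330 and the combination. Its libraries held 0.288, 0.269 and 0.170 CPM in DMSO, 0.920, 0.641 and 0.721 in CS, 3.16, 3.01 and 3.45 in KPT-330, and 7.46, 6.59 and 6.73 in the combination. The 4 groups rose without overlap in the order DMSO, CS, KPT-330, combination. The log2 fold change over DMSO was 3.70 ± 0.20 in KPT-330 and 4.81 ± 0.19 in the combination.

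CAPN5, the calpain (chr11:77066932-77126155), was likewise highest with both drugs. Its libraries held 0.924, 0.734 and 0.364 CPM in DMSO, 0.759, 0.909 and 0.910 in CS, 11.4, 11.2 and 12.6 in KPT-330, and 20.3, 19.4 and 15.6 in the combination. DMSO and CS overlapped and the groups with KPT-330 did not. Over DMSO the log2 fold change was 4.10 ± 0.22 in KPT-330 and 4.75 ± 0.22 in the combination. CAPN5 overlaps the olfactory gene OMP, which held at most 9 reads in a library.

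GOLGA7B and MTSS1L reached about the same level with KPT-330 whether or not CS was present. GOLGA7B (chr10:97850239-97871580) held 0.821, 1.08 and 0.825 CPM in the DMSO libraries, 1.17, 1.36 and 0.773 in CS, 11.3, 9.45 and 10.4 in KPT-330, and 10.5, 10.2 and 9.08 in the combination. MTSS1L (chr16:70661204-70686066) held 2.65, 1.49 and 1.12 CPM in the DMSO libraries, 1.38, 1.65 and 1.87 in CS, 22.4, 23.6 and 21.9 in KPT-330, and 22.9, 19.7 and 14.3 in the combination. For both genes DMSO overlapped CS and KPT-330 overlapped the combination. The log2 fold change over DMSO for GOLGA7B was 3.51 ± 0.18 in KPT-330 and 3.45 ± 0.18 in the combination, and for MTSS1L 3.67 ± 0.25 and 3.42 ± 0.25. With the GC correction the KPT-330 value of MTSS1L was 2.99.

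SLC2A4RG, the regulator of the GLUT4 gene (chr20:63739861-63743505), was highest in KPT-330 alone. Its libraries held 0.739, 0.783 and 0.194 CPM in DMSO, 0.598, 0.992 and 0.859 in CS, 13.3, 14.1 and 13.5 in KPT-330, and 7.10, 4.96 and 3.69 in the combination. DMSO and CS overlapped, and the combination lay between them and KPT-330. The log2 fold change over DMSO was 4.55 ± 0.33 in KPT-330, 3.86 with the GC correction, and 3.18 ± 0.34 in the combination. SLC2A4RG overlaps a protein-coding gene on the same strand, RP4-583P15.14, which held 12 reads over DMSO and 54 over KPT-330. With KPT-330 that gene was higher by 1.86 ± 0.57 (edgeR adjusted p = 0.0167), a call lost with the GC correction (adjusted p = 0.0686). In these bulk libraries a change in the number of cells that hold a transcript and a change in its amount per cell cannot be told apart.

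**Figure D1:**
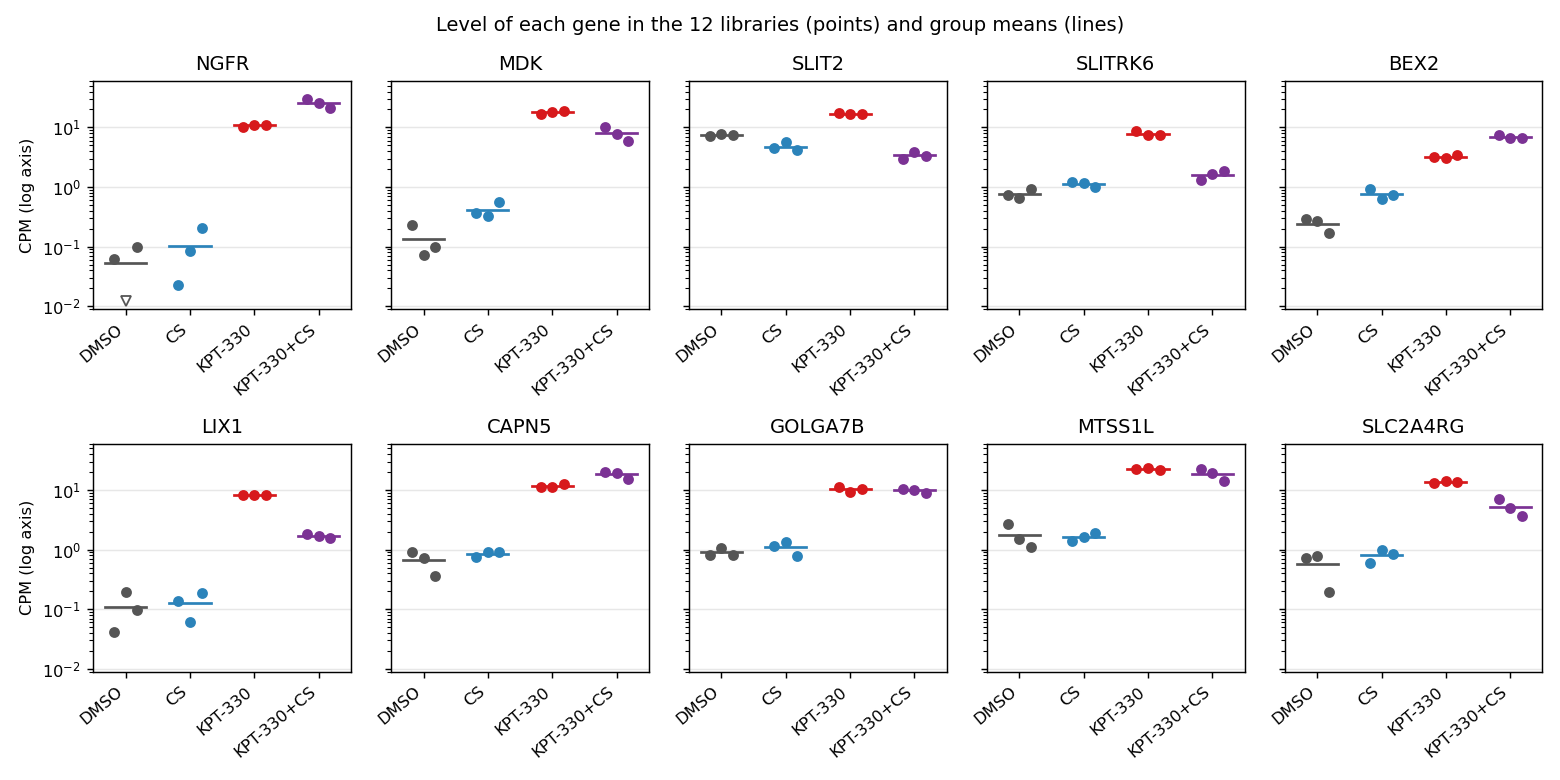
Level of each of the 10 genes in the 12 libraries, in CPM on a log axis, by group; each point is 1 library, and an open triangle at the bottom marks a library with 0 reads. All 10 genes have their 3 KPT-330 libraries above their 3 DMSO libraries, and SLIT2 falls below DMSO in the combination.

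Read against the whole table, all 10 genes had their KPT-330 libraries above all DMSO libraries, where 30.3% of tested genes did so. In the combination 9 of 10 lay above DMSO, where 30.7% of tested genes did. Genes with a log2 fold change over 2 that were called higher made up 2.69% of tested genes in KPT-330 and 3.55% in the combination. These shares are the setting in which the genes were picked and support nothing about them. The median log2 fold change of the 10 was 3.90 in KPT-330 against DMSO, and that of all tested genes was 0.04. Against CS, the combination gave log2 fold changes of 7.81 ± 0.33 for NGFR, 4.41 ± 0.21 for CAPN5, 4.22 ± 0.25 for MDK, 3.65 ± 0.29 for LIX1, 3.52 ± 0.25 for MTSS1L, 3.19 ± 0.16 for BEX2, 3.18 ± 0.18 for GOLGA7B, 2.67 ± 0.32 for SLC2A4RG, 0.52 ± 0.17 for SLITRK6 and -0.49 ± 0.13 for SLIT2. Without CS replicate 3 the NGFR value was 8.82.

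Few genes in the table made such a move from a level near 0. Of 50412 genes that averaged under 1 CPM in DMSO, 28113 had no read in any library and 5619 passed the filter on low counts. Of the 50412, 13 averaged at least 5 CPM in KPT-330, and 7 of these were among the 10 genes: NGFR, MDK, LIX1, CAPN5, GOLGA7B, SLITRK6 and SLC2A4RG. In the combination 19 genes did so, 6 of them members, and BEX2 came in there at 6.93 CPM while LIX1 and SLITRK6 dropped out. In CS alone 1 gene did so, and it was none of the 10. Both limits were chosen after the values had been seen. The 10 genes had been picked for strong changes, so their share in these sets supports nothing about them. The remaining genes of the KPT-330 set included FBXO32, a muscle ubiquitin ligase subunit, at 0.692 CPM in DMSO and 7.56 in KPT-330, and MYH11, a smooth muscle myosin, at 0.763 and 6.93.

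Between genes, levels were compared per kilobase of transcript. In DMSO, SLIT2 was the highest at 0.771 ± 0.025 CPM per kb (SD, n = 3) and NGFR the lowest at 0.0127 ± 0.0118. In KPT-330, MDK led at 8.23 ± 0.45, followed by SLC2A4RG at 6.07 ± 0.19 and MTSS1L at 4.52 ± 0.18. Each of these stood apart from the next by more than the spread of the libraries. BEX2 at 2.73 ± 0.19 and NGFR at 2.60 ± 0.14 were not separated by their spread, nor were LIX1 (2.01 ± 0.01), CAPN5 (1.90 ± 0.12), SLITRK6 (1.81 ± 0.15), SLIT2 (1.75 ± 0.04) and GOLGA7B (1.60 ± 0.14) from their neighbours in that order. In the combination the order changed. NGFR at 6.22 ± 1.12 and BEX2 at 5.89 ± 0.40 CPM per kb were the highest and within their spread of each other, then MTSS1L at 3.80 ± 0.87 and MDK at 3.61 ± 0.94, while LIX1 (0.412 ± 0.029), SLITRK6 (0.375 ± 0.063) and SLIT2 (0.350 ± 0.053) were the lowest and lay within their spread of each other.

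Adding CS to KPT-330 moved the 10 genes in different directions. This comparison did not itself choose them. Both its groups, though, are ones whose levels did, and picking genes for a strong change in either can favour a difference between them. The calls below are therefore not independent of how the genes were picked. Across all genes 37.6% were called at an adjusted p of 0.05 or less, 19.7% higher and 17.9% lower, and 8 of the 10 were called, 3 higher and 5 lower. The genes called higher with both drugs were NGFR by a log2 fold change of 1.26 ± 0.21 (edgeR adjusted p = 0.000393), BEX2 by 1.11 ± 0.14 (adjusted p = 4.32e-05) and CAPN5 by 0.65 ± 0.17 (adjusted p = 0.00807). In all 3 the combination libraries lay above the KPT-330 libraries, which held for 28.1% of all tested genes.

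The genes called lower were SLIT2, LIX1, SLITRK6, SLC2A4RG and MDK, and in these 5 the combination libraries lay below the KPT-330 libraries, as in 29.1% of tested genes. SLIT2 fell by 2.33 ± 0.13 on the log2 scale (edgeR adjusted p = 8.09e-08), LIX1 fell by 2.28 ± 0.19 (adjusted p = 1.75e-06) and SLITRK6 fell by 2.27 ± 0.15 (adjusted p = 3.22e-07). SLC2A4RG fell by 1.38 ± 0.26 (adjusted p = 0.00126) and MDK fell by 1.19 ± 0.19 (adjusted p = 0.000306). The 8 calls held in each of the alternatives run, leaving out any 1 library included, but their sizes moved. Over the alternatives SLC2A4RG ran from -1.66 to -0.84, MDK from -1.41 to -0.74, NGFR from 1.12 to 1.75 and CAPN5 from 0.57 to 0.94. GOLGA7B at -0.06 ± 0.15 (adjusted p = 0.757) and MTSS1L at -0.25 ± 0.21 (adjusted p = 0.368) did not pass, and with the GC correction MTSS1L was called higher at 0.28 (adjusted p = 0.00498). The median of the 10 was -0.72, against 0.00 over all tested genes.

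CS alone gave smaller differences from DMSO. This comparison did not itself choose the genes, but its DMSO libraries are the ones they were picked against. Picking genes that are low in those libraries can favour CS above DMSO. The calls for CS are therefore not independent of how the genes were picked either. Across all genes 8.88% were called, 3.76% higher and 5.13% lower, and 3 of the 10 genes were called. BEX2 was higher by a log2 fold change of 1.62 ± 0.23 (edgeR adjusted p = 0.000899), and its 3 CS libraries lay above its 3 DMSO libraries, as in 10.7% of tested genes. That call held in every alternative run. MDK was higher by 1.61 ± 0.42 (adjusted p = 0.0313), with all CS libraries above all DMSO libraries, but at 0.0734 to 0.550 CPM. Without DMSO replicate 1 the MDK value was 2.28. The call was lost without DMSO replicate 2 (1.34, adjusted p = 0.121), without DMSO replicate 3 (1.45, adjusted p = 0.117), without CS replicate 2 (1.75, adjusted p = 0.051), without CS replicate 3 (1.35, adjusted p = 0.139), and when DMSO and CS were fitted alone (1.64, adjusted p = 0.138).

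SLIT2 was the 1 gene of the 10 called lower with CS alone, with all CS libraries below all DMSO libraries (12% of tested genes), at -0.65 ± 0.13 (edgeR adjusted p = 0.00704), a call lost when DMSO and CS were fitted alone (-0.62, adjusted p = 0.0796). SLITRK6 lay above DMSO in all 3 CS libraries without passing the test, at 0.54 ± 0.19 (adjusted p = 0.0901), and it passed when libraries were scaled by their size alone (0.60, adjusted p = 0.0464) or corrected for GC content (0.58, adjusted p = 0.0283). The other 6 did not pass: NGFR at 1.04 ± 0.76, SLC2A4RG at 0.51 ± 0.39, CAPN5 at 0.34 ± 0.25, LIX1 at 0.30 ± 0.48, GOLGA7B at 0.27 ± 0.20 and MTSS1L at -0.11 ± 0.27, with adjusted p between 0.471 and 0.874. The NGFR and LIX1 values rested on single libraries. NGFR was 1.70 without DMSO replicate 3 and 0.04 without CS replicate 3, and LIX1 was 0.96 when DMSO replicate 2 was left out, -0.14 when DMSO replicate 1 was, and -0.11 when CS replicate 3 was. MTSS1L was 0.34 without DMSO replicate 1. For BEX2 the direction of CS was up both alone and beside KPT-330, and for SLIT2 it was down in both settings. For MDK and SLITRK6 the values beside DMSO were positive and those beside KPT-330 negative. The same signs were seen for SLC2A4RG (0.51 and -1.38), LIX1 (0.30 and -2.28) and GOLGA7B (0.27 and -0.06). Of the genes with opposite signs, MDK alone was called in CS against DMSO. Whether the effect of CS differs between the settings was not tested with an interaction term.

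**Figure D2:**
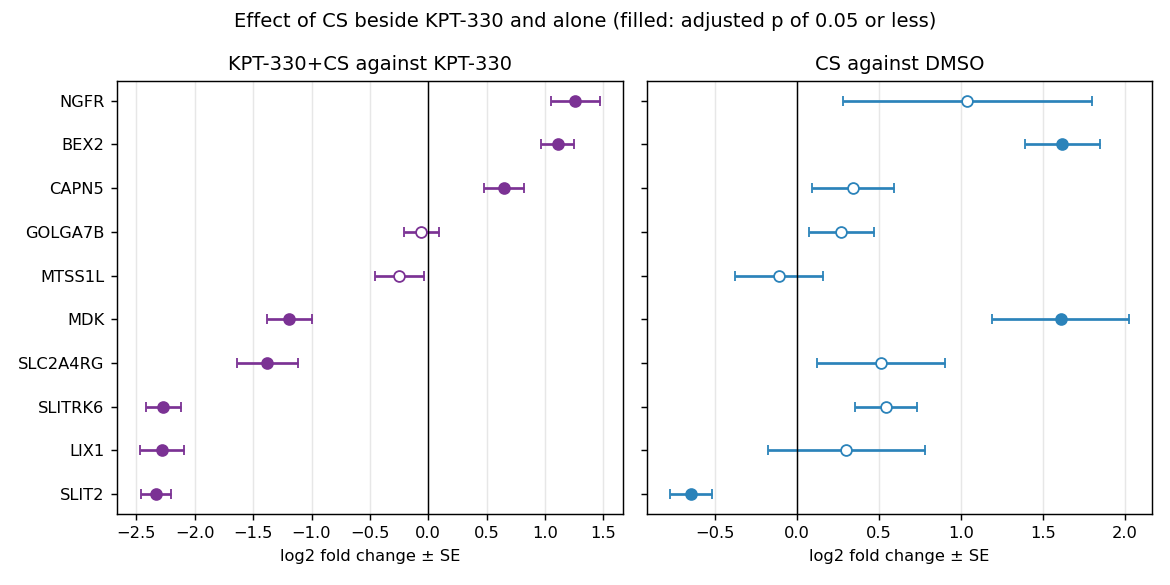
Log2 fold change of each of the 10 genes for CS against DMSO and for KPT-330+CS against KPT-330, with bars of 1 SE and filled points for calls at an adjusted p of 0.05 or less. NGFR, BEX2 and CAPN5 lie to the right of 0 beside KPT-330, and SLIT2, LIX1 and SLITRK6 lie near -2.3.

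The genes next to the 10 on the chromosome were called about as often as genes in general. The 20 flanking protein-coding genes, 1 on each side of each gene, held 12 tested genes, of which 3 were called higher, 2 lower and 7 neither in KPT-330 against DMSO. Over all tested genes 48.5% were called, 24.7% higher and 23.8% lower. The median log2 fold change of the 12 was 0.14. SFRP5, a secreted WNT antagonist 78.3 kb from GOLGA7B, averaged 0.0977 CPM in DMSO and 1.14 in KPT-330, higher by a log2 value of 3.48 ± 0.49 (edgeR adjusted p = 7.64e-05), or 2.86 with the GC correction, on 13 reads over DMSO. ZBTB46, a zinc finger gene 160 bases from SLC2A4RG on the opposite strand, was higher by 1.21 ± 0.30 (adjusted p = 0.00527). That call was lost with the GC correction (adjusted p = 0.0676). It rested on 28 reads over DMSO and 79 over KPT-330, in libraries without strand information. With CS added ZBTB46 fell by 1.81 (adjusted p = 0.000737), as SLC2A4RG did. Whether it gained reads from SLC2A4RG was not tested.

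DGKZ, a diacylglycerol kinase gene 201 bases from MDK, differed by 0.47 ± 0.17 (edgeR adjusted p = 0.0352), far less than MDK, and this call was lost in 8 alternatives. R3HCC1L beside GOLGA7B was lower at -0.52 ± 0.09 (adjusted p = 0.000254), and PACRGL beside SLIT2 at -0.38 ± 0.13 (adjusted p = 0.0242, lost in 6 alternatives). The genes that did not pass were PHB (-0.15) beside NGFR, RIOK2 (-0.18) and LNPEP (-0.04) beside LIX1, LCORL (-0.13) beside SLIT2, VAC14 (0.32) beside MTSS1L, LIME1 (0.62) beside SLC2A4RG and MYO7A (1.19, adjusted p = 0.0648) beside CAPN5. Without DMSO replicate 1, LIME1 (1.03, adjusted p = 0.0332), MYO7A (1.72, adjusted p = 0.0305) and RIOK2 (-0.24, adjusted p = 0.022) passed, and with the GC correction LIME1 was -0.21, VAC14 was called lower at -0.16 (adjusted p = 0.00622) and LNPEP was called higher at 0.14 (adjusted p = 0.00547). The 8 others had too few reads to be tested. SLITRK1 and SLITRK5, which flank SLITRK6 and are its relatives, had 0 reads in all 12 libraries.

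**Figure D3:**
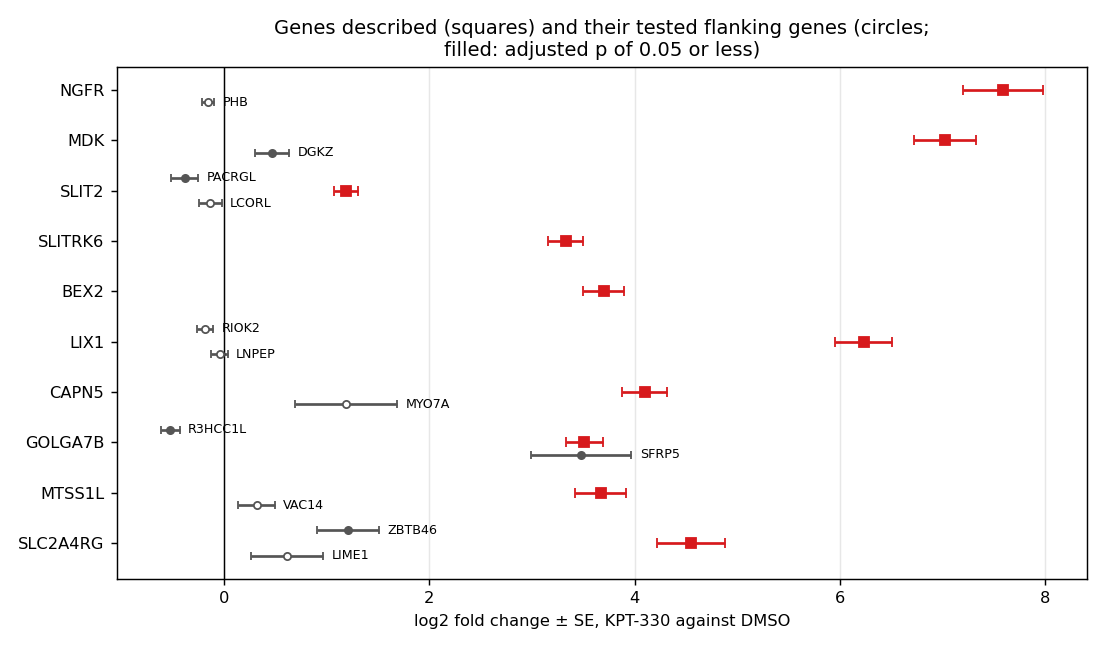
Log2 fold change of KPT-330 against DMSO for each of the 10 genes and for its tested flanking protein-coding genes, with bars of 1 SE. The flanking genes lie between -0.52 and 3.48, and 7 of the 12 were not called.

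Partners of NGFR were compared in the neurotrophin receptor pathway, a list of ligands, co-receptors and adaptors. Of 16 genes tested, 8 rose and 2 fell with KPT-330, with a median log2 fold change of 0.29, where 24.7% of all tested genes were called higher and 23.8% lower. With the GC correction these were 9 and 5, and with library size alone 11 and 1. The largest changes were in NGFRAP1, which binds the p75 receptor and is a BEX relative, at 1.36 ± 0.08 (edgeR adjusted p = 5.15e-08), in NTF3, the ligand neurotrophin 3, at 0.84 ± 0.17 (adjusted p = 0.00101), and in SORL1, a sorting receptor, at 0.69 ± 0.07 (adjusted p = 2.42e-06). SORT1, the co-receptor sortilin, rose by 0.31 ± 0.09 (adjusted p = 0.012). The gamma-secretase genes APH1A (0.09) and NCSTN (0.08) did not pass, and APH1A was called lower with the GC correction (-0.21, adjusted p = 0.00113) and higher with library size alone (0.25, adjusted p = 0.0163). The receptors NTRK2 and NTRK3 held at most 1 and 22 reads in a library. BDNF had 3 reads over the 3 DMSO libraries, 5 over KPT-330 and 40 over the combination, which is 8.91 times the KPT-330 level after scaling (95% interval 3.52 to 28.9, counting error alone; the fitted log2 value of 3.08 was 3.76 without KPT-330 replicate 1).

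Partners of midkine were called in both directions, 6 higher and 6 lower of 14 tested, with a median of 0.15 that turned negative (-0.26) with the GC correction. PTPRS, a receptor phosphatase, rose by 2.52 ± 0.28 (edgeR adjusted p = 9.13e-06), the kinase LTK by 2.09 ± 0.40 (adjusted p = 0.000815; 1.45 with the GC correction) and the endocytic receptor LRP1 by 1.32 ± 0.25 (adjusted p = 0.000771). The heparan sulfate carrier SDC1 went from 4 reads over DMSO to 57 over KPT-330, 11.6 times the DMSO level (95% counting interval 4.30 to 44.2). Its fitted log2 fold change was 3.45, and 4.61 without DMSO replicate 1. The nucleolar protein NCL, also a surface binding partner, was lower at -0.45 ± 0.05 (adjusted p = 1.13e-05). PTN, the closest relative of midkine, and the receptor PTPRZ1 had 0 reads, and ALK held at most 3 in a library.

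The SLIT-ROBO pathway had 18 tested genes, of which 2 were called higher and 4 lower, with a median of -0.02. When libraries were scaled by their size alone these were 7 and 4 with a median of 0.14, with the GC correction 3 and 7, and without DMSO replicate 1 they were 4 and 6. ROBO3, a divergent ROBO receptor, went from 3 reads over DMSO to 120 over KPT-330, 32.7 times the DMSO level (95% counting interval 10.9 to 161). Its fitted log2 fold change was 4.88, and 5.67 without DMSO replicate 1. SLIT1, another ligand, rose by 1.99 ± 0.40 (edgeR adjusted p = 0.00116), and ROBO2, a receptor of SLIT2, was lower at -0.92 ± 0.12 (adjusted p = 2.94e-05). ROBO1 held at most 4 reads in a library, SLIT3 at most 9, and ROBO4 had 0. In the SLITRK and LRRTM list the 1 tested gene was PTPRF, a synaptic receptor phosphatase, which rose by 2.85 ± 0.38 (adjusted p = 4.25e-05) and fell by 1.71 (adjusted p = 0.00127) when CS was added, as SLITRK6 did.

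The relatives of BEX2 were called in 1 direction. Of 6 BEX and TCEAL genes tested, 5 rose and 0 fell, with a median of 1.09, and these counts were 5 or 6 and 0 under each scaling and without any 1 library. TCEAL3 rose by 1.85 ± 0.25, TCEAL1 by 1.09 ± 0.20, WBP5 by 1.09 ± 0.11 and TCEAL4 by 0.73 ± 0.06, beside NGFRAP1 above, while TCEAL8 at 0.18 (edgeR adjusted p = 0.106) did not pass, and did at 0.32 (adjusted p = 0.00192) without DMSO replicate 3. BEX1 held at most 2 reads in a library, BEX4 at most 7 and BEX5 had 0. The TCEAL genes and BEX2 lie in 1 cluster on chromosome X and resemble each other, so that reads shared between copies may be split among them.

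Of 12 calpain genes tested beside CAPN5, 6 rose and 2 fell, with a median of 0.59, and with the GC correction 6 and 4. CAPN11 rose by 2.16 ± 0.33 (edgeR adjusted p = 0.000129), CAPN12 by 1.70 ± 0.46 and CAPN9 by 1.52 ± 0.31, whereas CAST, the calpain inhibitor, differed by 0.17 (adjusted p = 0.0572) and passed in 6 alternatives, at 0.26 (adjusted p = 0.00783) without DMSO replicate 3. Among 23 palmitoylation genes 11 rose and 5 fell, with a median of 0.20, and with library size alone 13 and 1. GOLGA7, the close relative of GOLGA7B, differed by -0.11 (adjusted p = 0.18). ZDHHC5, the enzyme that GOLGA7B assists, was lower at -0.19 ± 0.05 (adjusted p = 0.0105), a call lost with library size alone and with no filter on low counts. ZDHHC8, its closest relative, rose by 1.61 ± 0.35 (adjusted p = 0.00214), or 0.87 with the GC correction. ZDHHC22 had 0 reads over DMSO and 23 over KPT-330, at least 6.26-fold higher against a floor of 3 reads over the group.

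Among I-BAR genes, MTSS1 rose by 0.33 ± 0.05 (edgeR adjusted p = 0.000157) and BAIAP2 did not pass (0.29, adjusted p = 0.531, and -0.36 with the GC correction). The list of GLUT genes and SLC2A4 regulators also held the LIX1 relative LIX1L. Of its 16 tested genes 10 rose and 2 fell, SLC2A5 and LIX1L, with a median of 0.28. With the GC correction these were 7 and 4 with a median of 0.09, and with 1 library left out 7 to 10 rose and 1 to 3 fell, with 1 falling without DMSO replicate 2 or 3 or any 1 KPT-330 library. SLC2A4, the gene that SLC2A4RG is named for, rose by 0.92 ± 0.23 (adjusted p = 0.00558), SLC2A3 by 1.18 ± 0.14 (adjusted p = 2.08e-05) and the transcription factor MEF2B by 1.19 ± 0.23 (adjusted p = 0.001; 0.41 with the GC correction), while the fructose transporter SLC2A5 was lower at -1.44 ± 0.05 (adjusted p = 8.39e-10). LIX1L, the relative of LIX1, differed by -0.14 (adjusted p = 0.03), a call lost in 9 alternatives.

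**Figure D4:**
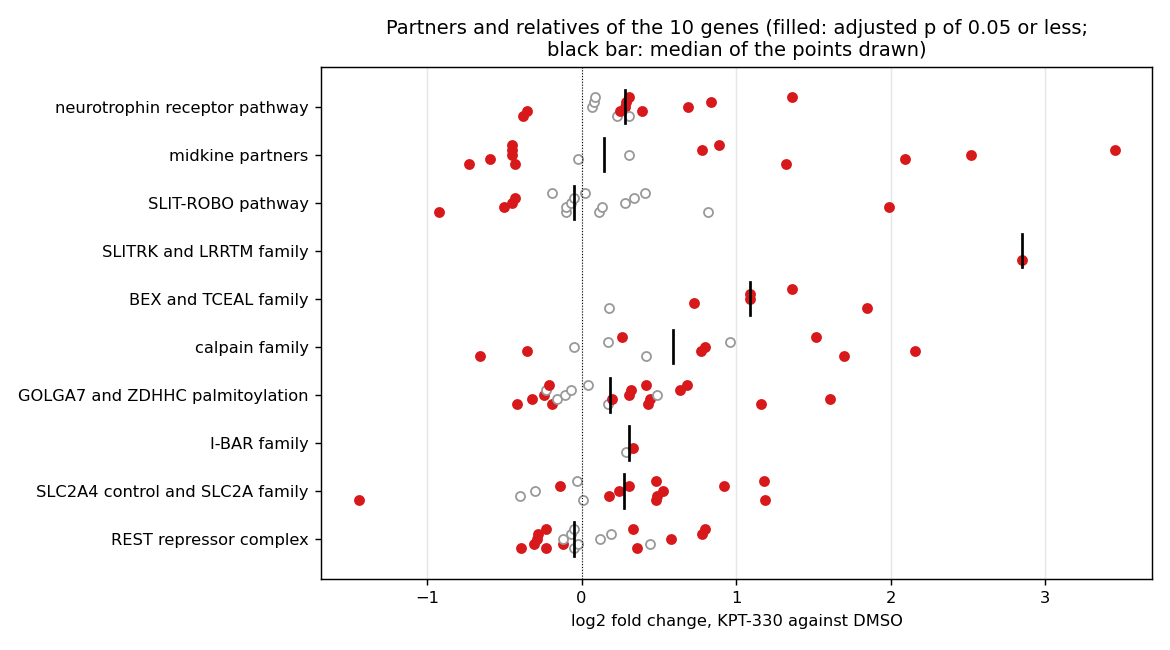
Log2 fold change of KPT-330 against DMSO for the tested genes of the lists built around the 10 genes, with 1 row per list and 1 point per gene, leaving out genes with 3 or fewer reads over DMSO. The BEX and TCEAL row holds 6 tested genes, of which 5 were called higher, and the SLIT-ROBO row centres near 0.

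REST is the repressor that keeps many neuronal genes silent outside the nervous system, and its complex was listed for that reason. Of 20 genes tested 5 were higher and 7 lower with KPT-330, with a median of -0.05. With library size alone these were 8 and 3 with a median of 0.11, and with the GC correction 3 and 9. Leaving out DMSO replicate 3 gave 3 and 4, and leaving out KPT-330 replicate 1 or 3 gave 4 and 4. REST itself was 69.9 CPM in DMSO and 57.7 in KPT-330, a log2 fold change of -0.28 ± 0.08 (edgeR adjusted p = 0.0147) that was lost in 5 alternatives. The methyltransferase gene EHMT1 rose by 0.78 ± 0.13 (adjusted p = 0.000336), and RCOR2, a corepressor, by 0.80 ± 0.23 (adjusted p = 0.0107), the latter lost with the GC correction (0.12, adjusted p = 0.318) and with no filter on low counts (adjusted p = 0.0613). Beside REST, the genes called lower included USP7, at -0.39 ± 0.07 (adjusted p = 0.00043), and KDM1A, at -0.31 ± 0.06 (adjusted p = 0.00128). CTDSP2 and HDAC1 did not pass.

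Markers of other cell types were summed beside these results. Over all tested genes 24.7% were called higher and 23.8% lower with KPT-330. Of 30 neuronal markers 8 had 0 reads, SYT1, STMN2, NEFM and NEFH among them, and 10 were tested, 6 higher and 1 lower with a median of 0.84, and their summed level was 83.6 to 113 CPM in DMSO and 169 to 170 in KPT-330. MAP2, a neuronal microtubule protein, rose by 1.24 ± 0.07 (edgeR adjusted p = 2.91e-08), and SNAP25 (0.14) did not pass. Glial and Schwann markers were 1 higher and 2 lower of 3 tested, at 47.1 to 50.2 CPM in DMSO and 57.1 to 59.1 in KPT-330, with SOX10, OLIG1 and AQP4 at 0 reads. Stromal and follicular dendritic markers were 3 higher of 3 tested, at 11.3 to 13.2 and 22.5 to 23.4 CPM, with FDCSP, LUM and POSTN at 0. T cell markers were 6 higher of 6 tested, at 15.3 to 16.1 and 30.4 to 31.8 CPM, with CD3E at 42 reads over DMSO and 136 over KPT-330. TRAC held most of that sum, at 11.1 CPM in DMSO and 17.4 in KPT-330. Epithelial and endothelial markers were 2 higher and 1 lower of 3, at 21.2 to 22.1 and 18.0 to 19.1 CPM, with KRT19 and KDR at 0. PECAM1, the 1 called lower, held most of that sum, at 20.8 and 15.6 CPM. EPCAM rose from 0.439 to 1.77 CPM and KRT8 from 0.262 to 1.01. Myeloid markers were 3 lower of 4 tested, at 3.35 to 5.46 and 2.18 to 2.40 CPM, with MPO, ELANE, S100A8 and S100A9 at 0. The part of these shifts in the results for the 10 genes was not tested.

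The 10 genes did not follow 1 profile across the 12 libraries. Pearson correlations of log2 CPM between pairs ran from -0.10 for SLIT2 and BEX2 to 0.981 for CAPN5 and MTSS1L, over 12 libraries that fall into 4 treatments, so that they mostly restate the group means. Among 11321 other genes with a mean of at least 5 CPM, the closest profile to NGFR was that of LINC01006 (r = 0.992), to MDK that of MFGE8 (0.995), to LIX1 that of MYLK3 (0.991) and to SLC2A4RG that of PHYHD1 (0.986). For SLIT2 it was FARP1 (0.98) and for SLITRK6 it was LTBP1 (0.977). For BEX2 it was C1orf115 (0.99), for CAPN5 TP53INP2 (0.996), for GOLGA7B TFDP2 (0.996) and for MTSS1L LRIG1 (0.993).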

How the data were processed

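Per the labels, RNA came from a kit meant for fixed tissue, and the 12 JEKO-1 libraries hold poly(A) RNA without strand information. The authors aligned the reads to hg38 with STAR and deposited raw gene counts on Ensembl version 78, per the series design text and the submitters' processing notes. How reads were counted, with or without strand, is not given in the sources used here. The deposited counts of 64253 genes were filtered with filterByExpr by group, scaled by TMM and tested with edgeR 4.0.16 in R 4.3.3, by quasi-likelihood with Benjamini-Hochberg adjustment over 19460 genes and all 12 libraries in 1 fit. A gene was called at an adjusted p of 0.05 or less. The test was checked on simulated counts. The members and lists were chosen with earlier results of these data known. From each list up to 3 called genes with the largest change, up to 2 uncalled genes with the highest level, and direct ligands, receptors and closest relatives could be named, with both flanking genes and, as most alike in profile, the genes with the highest Pearson correlation. USP7, KDM1A and CAPNS1 were named besides, for their direction. Intervals and floors on reads cover counting error alone. Alternatives were DESeq2 1.42.0 and its size factors, library size alone, no filter, a filter at 1 CPM, 2 groups fitted alone, a replicate block, each library left out and, chosen after seeing the data, a GC correction. A few genes and motifs of the lists are not reported here.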

Additional observations from a re-analysis of the deposited data

How the results depend on the processing

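Among the 10 genes, the GC correction gave 1 call against the main direction, MTSS1L in the combination against KPT-330, from -0.25 to 0.28. GOLGA7B changed sign there too, from -0.06 to 0.12, and was called in neither fit. Other genes also turned: in KPT-330 against DMSO the calpain gene CAPNS1 went from called higher (0.26) to called lower (-0.24). Further sign changes, such as that of LIME1, are given above. Counts of called genes stayed within 1.5 times of the main count in 4 of the 5 comparisons. CS against DMSO was the exception: 1729 genes were called, against 1036 with the replicate block, 249 when the groups were fitted alone, 4059 with the GC correction, and 760 to 2580 when 1 library was left out, the lowest without CS replicate 2. Same-numbered libraries did not all deviate together (correlations -0.384 to 0.401), so the numbers are not taken as pairs. In replicates 1 and 3, DMSO and the combination did deviate together (0.358 and 0.401), and CS deviated against DMSO (-0.36 and -0.384). What these libraries share was not tested. The replicate block gave 8730 calls against 9446 for KPT-330 against DMSO, and under it the MDK call in CS was lost (1.63, adjusted p = 0.0526). Scaling by library size alone moved the median of all genes from 0.04 to 0.20 in KPT-330 against DMSO and the higher and lower calls from 4815 and 4631 to 6651 and 2905. It moved them from 5711 and 5095 to 7606 and 3363 for the combination against DMSO, from 5081 and 4216 to 6549 and 3029 against CS, and from 731 and 998 to 1365 and 714 for CS against DMSO. Of 998 values of the 10 genes under alternatives, 992 kept their direction, and the 6 others were for LIX1 and MTSS1L in CS against DMSO and GOLGA7B and MTSS1L in the combination against KPT-330. Of 398 values in these tested comparisons, 388 kept their side of the threshold and direction of call. Of the uncalled genes named for KPT-330, PHB, NCSTN, CTDSP2, HDAC1 and SNAP25 also passed under at least 1 alternative. Depth limits NGFR, MDK and LIX1 most, since their DMSO and CS levels rest on few reads.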

Other observations

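Other genes that averaged under 1 CPM in DMSO and at least 5 CPM in the combination included TP53INP1, a stress-induced gene, at 0.886 CPM in DMSO, 4.92 in KPT-330 and 17.6 in the combination. FBXO32 reached 20.2 CPM in the combination, DEPTOR, an inhibitor of mTOR, went from 0.574 to 5.11, and NDRG1, a stress and differentiation gene, from 0.747 to 6.95. An immunoglobulin segment, IGKV1-13, was at 0.0612 CPM in DMSO, 32.2 in KPT-330 and 0.105 in the combination. These genes were chosen after their values were seen, and no test is given.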
